A study of Homo sapiens with 30 samples.

Results

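The Ewing sarcoma fusion protein EWS::FLI1 is known to switch on the 10 genes described here, which were followed through treatment with a BET bromodomain inhibitor. They are NR0B1, NKX2-2, GLI1, BCL11B, PRKCB, PPP1R1A, NPY1R, STEAP1, STEAP2 and LOXHD1. The rule lists them by symbol, with no threshold on expression, but they were proposed with earlier results of these data known. All 10 were found among the 33538 genes of the count table. All 10 also passed the filter on low counts, which left 16713 genes to test.

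The libraries come from poly(A) RNA of the Ewing sarcoma lines CHLA10, A673 and TC32, each labelled with the genotype EWS::FLI1. Cells were given 5 nM BMS-986158, a BET bromodomain inhibitor, or the vehicle DMSO. All lines were sampled at 3 days (72 h of exposure), and CHLA10 and A673 also after 20 days of continuous exposure, cells that the submitters call persisters. Each of the 10 groups had 3 libraries, and 20-day TC32 was not analysed here. The labels do not say how long the 20-day vehicle groups were kept in DMSO. CHLA10 was grown in IMDM with 20% serum and ITS-X and the other lines in RPMI1640 with 10% serum, so line and medium cannot be told apart. Whether the replicates were grown as separate cultures is not labelled, and the p-values then reflect only how far these libraries spread, which can be technical.

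EWS::FLI1 joins the activation domain of EWSR1 to the DNA-binding domain of the ETS factor FLI1. It is known to bind runs of GGAA repeats, often far from genes, where it builds new enhancers, and single ETS sites with the core GGAA. BET proteins read acetylated histones at enhancers and promoters and help RNA polymerase II to elongate, and inhibitors of the BMS-986158 kind displace them from chromatin. The comparisons below ask how the RNA of each target differed between inhibitor and vehicle in each line, and whether that difference changed with time or line.

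Stretches before 3 start sites are shown because they span what the search found: LOXHD1, the member with the largest changes in CHLA10 and A673, holds the only GGAA repeat among the promoter windows of the members, STEAP1 holds lone GGAA cores and 1 pair that abuts as TTCCGGAA, and BCL11B holds none. They are RefSeq sequences on GRCh38.p14, 5′ to 3′ on the strand of the gene, cut to bases outside annotated exons, with GGAA and its reverse complement TTCC in capitals. The LOXHD1 stretch is chr18:46657221-46657470 (minus strand), the STEAP1 stretch chr7:90154219-90154374 (plus strand) and the BCL11B stretch chr14:99272198-99272447 (minus strand).
LOXHD1: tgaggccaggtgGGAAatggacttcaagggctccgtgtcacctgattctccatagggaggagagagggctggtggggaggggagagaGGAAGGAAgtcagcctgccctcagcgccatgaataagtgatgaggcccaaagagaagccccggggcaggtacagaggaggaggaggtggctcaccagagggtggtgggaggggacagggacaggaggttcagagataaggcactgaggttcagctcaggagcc
STEAP1: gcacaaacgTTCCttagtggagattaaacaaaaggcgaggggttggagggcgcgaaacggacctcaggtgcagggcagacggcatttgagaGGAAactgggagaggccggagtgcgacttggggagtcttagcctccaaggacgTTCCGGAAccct
BCL11B: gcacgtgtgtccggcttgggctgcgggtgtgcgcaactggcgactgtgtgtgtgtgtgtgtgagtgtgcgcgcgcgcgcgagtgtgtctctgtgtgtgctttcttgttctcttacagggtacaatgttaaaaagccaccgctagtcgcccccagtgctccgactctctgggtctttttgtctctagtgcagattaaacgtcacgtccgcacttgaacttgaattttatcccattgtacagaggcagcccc

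RefSeq promoter windows, from 250 bases before to 50 bases after a start site, were found for 8 of the 10 members, 13 windows in all. GLI1 and PPP1R1A had no window and were not searched. GGAA on either strand occurred in 95.5% of all 35116 windows of this length, with a median of 3 matches, so its presence sets no member apart. The 8-base repeat GGAAGGAA, which overlaps GGAA by counting as 2 matches of it, occurred in 3.7% of all windows and, among the members, in 1 of the 4 LOXHD1 windows. That window held 5 GGAA matches and the other LOXHD1 windows 1, 1 and 4, and the other members had 1 or 2 windows each. The ETS consensus CCGGAAGT occurred in 4.1% of all windows and in none of the members' windows. The NPY1R window held 7 GGAA matches, a number that 8.3% of all windows reach, and the windows of BCL11B and PRKCB held 0. A match is a string in a window, not a bound site, and enhancers far from the start are not covered.

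Depth lay between 16083677 and 48949739 counts per library. The 4 markers of the response to BET inhibition, HEXIM1, SERPINI1, BRD2 and MYC, were mostly higher under the inhibitor. All 4 rose in A673 at 3 and 20 days and in TC32, where 15.3%, 19.7% and 22.3% of all genes did. In CHLA10 3 rose at each time (14.0% and 16.5% of all genes), and 1 fell at 20 days (17.2%). HEXIM1, whose protein holds P-TEFb inactive, rose in all 5 comparisons, by 0.66 to 1.06 on the log2 scale, and SERPINI1 rose by 1.82 to 3.20. Counts at EWSR1 differed by -0.19 to 0.16 (log2 change, none called), and FLI1 was called in A673 at 3 days only, at 0.27 ± 0.09 (SE, adjusted p = 0.0214). These counts do not separate the fusion from the intact alleles. All 5 Ewing sarcoma markers, CD99, FLI1 and the members NR0B1, NKX2-2 and STEAP1, passed the filter. Their summed level was 554 to 4130 CPM (a counts-per-million level, read counts scaled to the library), a sum not separate from the members. Of these markers NKX2-2 was low in CHLA10, at group means of 0.29 to 1.70 CPM. Summed levels were at most 2.06 CPM for 5 blood markers, 10.4 CPM for 4 endothelial and 1.48 CPM for 3 muscle markers. The 5 epithelial markers, 3 of which passed the filter, summed to 0 to 649 CPM. Of these EPCAM stayed at or under 1.34 CPM as a group mean and fell in A673 at 3 days (-2.99). KRT8 fell in CHLA10 at both times (-2.31 and -2.48) and in A673 at 3 days (-1.99), and was not called in TC32 or in A673 at 20 days. KRT18 fell in CHLA10 and TC32, was not called in A673 at 3 days (-0.27) and rose in A673 at 20 days (424 ± 273 against 123 ± 17.5 CPM, SD, n = 3). Their part in the members' results was not tested.

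The third replicates of 4 groups stood apart from the others of their groups: A673 at 20 days with inhibitor, A673 at 3 days with vehicle, CHLA10 at 20 days with inhibitor and CHLA10 at 20 days with vehicle. In the A673 20-day treated library all 10 members were higher than the mean of the other 2 replicates, by 1.12 to 7.9 times. In the CHLA10 20-day treated library all 10 were lower, at 0.183 to 0.667 of that mean. In the CHLA10 20-day vehicle library 9 of 10 were lower, and in the A673 3-day vehicle library 6 of 10. The results are therefore given with all 30 libraries and, where a treatment call of a member differs, also without these 4, a choice made after seeing the data. None of the 4 belongs to CHLA10 at 3 days or to TC32. There the members' changes hardly moved without them, and calls were gained through the smaller spread that all groups share in the model.

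Before any treatment effect, the members differed between lines. Levels between genes are compared here per kilobase of exon, in the 3-day vehicle groups. In TC32, NR0B1 was the highest member at 303 ± 19.1 CPM per kb (SD, n = 3) and GLI1 the lowest at 1.46 ± 0.167. In A673, NR0B1 also led, at 113.9 ± 49.6, and LOXHD1 was lowest at 8.42 ± 1.89. In CHLA10, NPY1R led at 86.4 ± 2.46 and NKX2-2 was lowest at 0.575 ± 0.0614. The spread between lines was widest for NKX2-2, a homeodomain transcription factor that serves as a diagnostic marker of Ewing sarcoma: CHLA10 held 18, 26 and 25 reads of it in the 3 vehicle libraries, A673 871, 1342 and 1184, and TC32 1304, 1717 and 1434.

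In edgeR's quasi-likelihood test, with Benjamini-Hochberg adjustment over all genes and a call at adjusted p under 0.05, 7 of the 10 members differed between A673 and CHLA10 vehicle cells, where 61.2% of all genes tested did. For TC32 against CHLA10 it was again 7 of 10 (61.1% of all genes), and for TC32 against A673 it was 6 of 10 (66.6%), so the members differed between lines about as often as genes at large. NKX2-2 was 41.7-fold higher in A673 than in CHLA10 (log2 difference 5.38 ± 0.35, adjusted p = 1.52e-12). GLI1 was 7.04-fold higher in A673 than in CHLA10 (adjusted p = 1.72e-07) and 6.33-fold lower in TC32 than in A673 (3.14e-07). NPY1R was 4.99-fold lower in TC32 than in A673 (adjusted p = 3.3e-09), while A673 and CHLA10 were not called apart (0.237), though they were without the 4 distant libraries (-0.37, adjusted p = 0.000659). PPP1R1A was highest in CHLA10, 3.34-fold over A673 (3.09e-05), and A673 and TC32 were not called apart (0.077), though they were without those libraries (-0.52, adjusted p = 1.57e-05) and by DESeq2 (0.0392). STEAP2 was 4.38-fold higher in A673 than in CHLA10 (0.000381) and level between TC32 and A673 in this fit, at a log2 difference of 0.00 ± 0.43. The order of the lines thus changed from member to member. By mean level alone TC32 was highest for NR0B1, NKX2-2, STEAP1, STEAP2 and LOXHD1, CHLA10 for PRKCB, BCL11B, PPP1R1A and NPY1R, and A673 for GLI1. Some of these ranks were not called. LOXHD1 and STEAP2 were not called apart between TC32 and A673 (adjusted p = 0.59 and 0.997). Nor were STEAP1 and BCL11B between TC32 and CHLA10 (0.0556 and 0.0599), or NPY1R as given above.

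**Figure D1:**
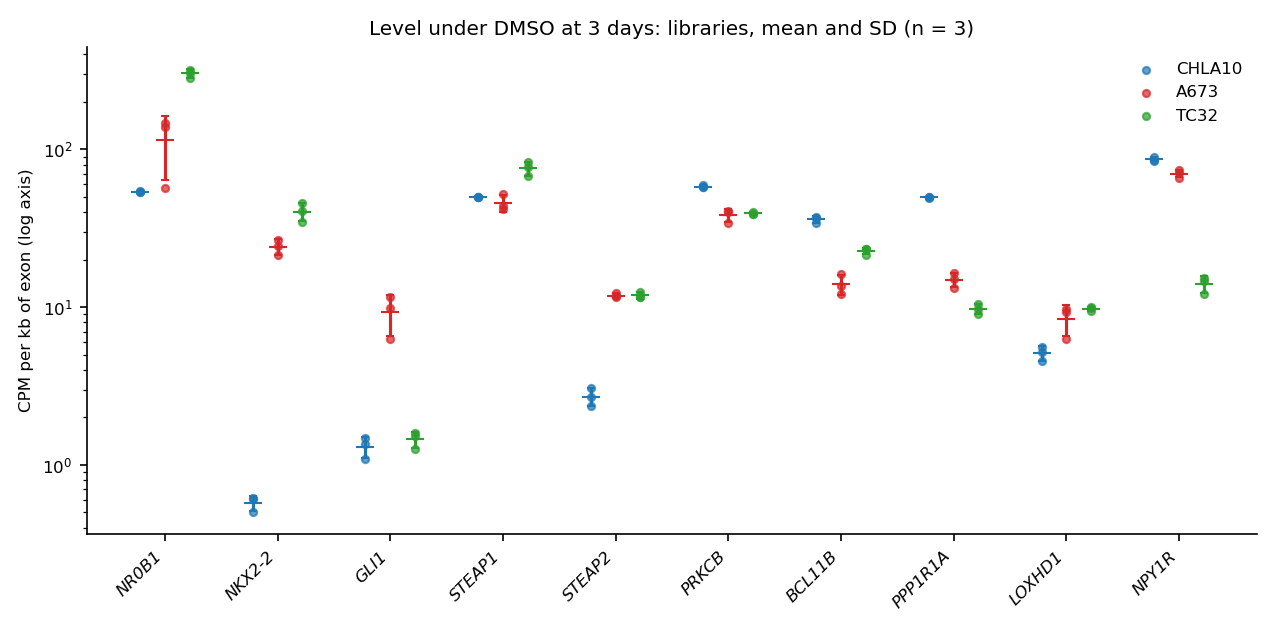
Level of each member in the 3-day vehicle groups (y axis: CPM per kb of exon, log axis), by line, with each library as a point and the mean and SD of 3 libraries as bars. NKX2-2 lies near 0.575 in CHLA10 and above 20 in the other lines, and GLI1 is highest in A673.

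Under the inhibitor, no member was called higher in any of the 5 comparisons, where 14.0% (CHLA10), 15.3% (A673) and 22.3% (TC32) of all genes were at 3 days and 16.5% (CHLA10) and 19.7% (A673) at 20 days. Without the 4 distant libraries BCL11B was called higher in CHLA10 and TC32 at 3 days and NR0B1 in CHLA10 at 20 days, where 19.0%, 25.7% and 18.5% of all genes were. None of the 4 is in the CHLA10 3-day or TC32 groups, so these BCL11B calls came with smaller standard errors, not larger changes. In CHLA10 at 3 days 5 of 10 members fell, where 15.7% of all genes did. In A673 at 3 days 6 of 10 fell (18.4% of all genes), and in TC32 at 3 days 4 of 10 (22.8%). After 20 days 7 of 10 fell in CHLA10 (17.2% of all genes) and 10 of 10 in A673 (19.9%). Without the distant libraries 8 (CHLA10), 9 (A673) and 6 (TC32) fell at 3 days, with 21.5%, 21.8% and 28.1% of all genes, and 10 fell in A673 at 20 days, with 24.7%. In CHLA10 at 20 days 9 then fell and 1 rose, where 36.4% of all genes were called in either direction. The median log2 change of the 10 members was -0.88 in CHLA10, -1.01 in A673 and -0.53 in TC32 at 3 days, and -1.15 in CHLA10 and -1.77 in A673 at 20 days. Over all genes tested the median lay between -0.02 and 0. The members that fell in all 5 comparisons were LOXHD1, GLI1 and PPP1R1A. RNA was measured in bulk, so fewer cells that express a gene and less of its RNA per cell cannot be told apart.

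**Figure D2:**
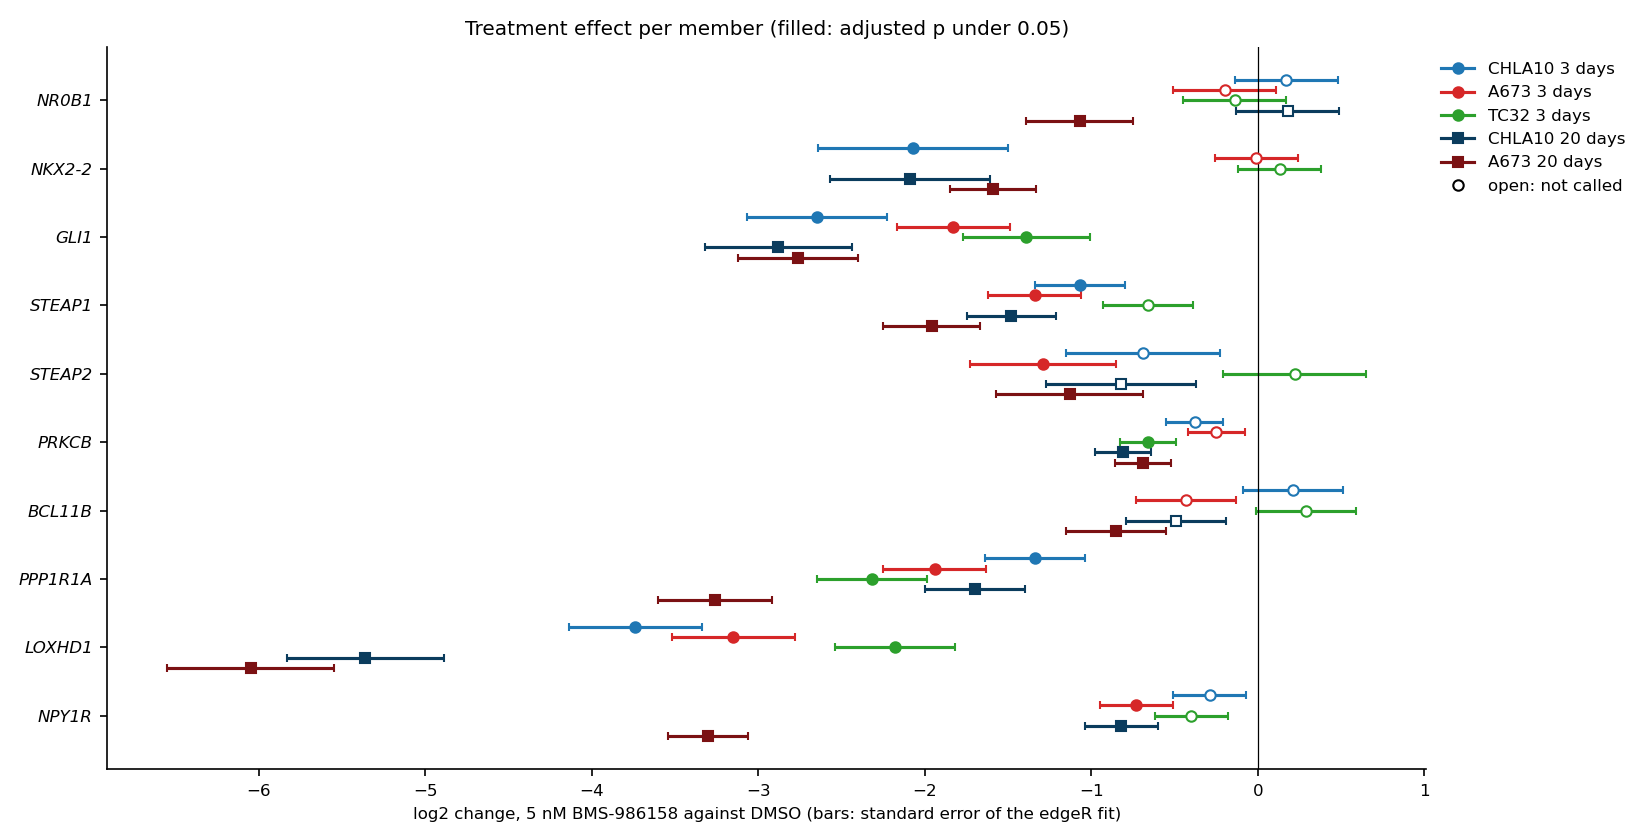
Log2 change of each member, inhibitor against vehicle (x axis, with the standard error of the edgeR fit), for 3 lines at 3 days (circles) and 2 lines at 20 days (squares), filled where adjusted p was under 0.05. LOXHD1 lies at -2.18 to -6.05, and NR0B1 lies near 0 in all comparisons but A673 at 20 days.

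Of the transcription factors, GLI1, the effector of Hedgehog signalling and a direct EWS::FLI1 target, fell throughout. In CHLA10 at 3 days it stood at 4.57, 6.22 and 5.69 CPM with vehicle and 0.477, 1.43 and 0.737 CPM with inhibitor. In A673 the 3-day values were 48.8, 41.6 and 26.3 CPM with vehicle and 9.95, 11.1 and 11.6 CPM with inhibitor. In TC32 they were 6.36, 6.66 and 5.33 against 2.22, 2.90 and 1.87 CPM. In every line each treated library lay below each vehicle library. The log2 change was -2.65 ± 0.42 in CHLA10 (adjusted p = 2.66e-05), -1.83 ± 0.34 in A673 (0.000159) and -1.39 ± 0.38 in TC32 (0.00414). At 20 days treated CHLA10 held 0.739, 0.591 and 0.367 CPM against 3.05, 4.67 and 5.01, a 7.38-fold difference. Treated A673 held 3.28, 1.53 and 8.41 CPM against 31.5, 30.5 and 28.3, a 6.76-fold difference (log2 change -2.76), and without treated replicate 3 the change was -3.62. The GLI1 locus (chr12:57460135-57472262) overlaps ARHGAP9 on the other strand, and the strand setting of the counting is not given in the sources used here. ARHGAP9 itself was low, at most 3.77 CPM as a group mean, and in CHLA10 at 3 days its vehicle level, 3.74 ± 0.353 CPM (SD, n = 3), was near that of GLI1. Its log2 changes were called in CHLA10 at both times (-2.58 and -3.26) and in A673 at 3 days (-4.63), and stood at -1.92 in TC32 and -2.03 in A673 at 20 days, not called. The part of shared reads was not tested.

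NKX2-2 fell at 3 days in CHLA10 and was not called in A673 or TC32. In CHLA10, where it was scarce, its vehicle values of 1.06, 1.28 and 1.27 CPM stood against 0.0397, 0.178 and 0.650 CPM with inhibitor, and it fell by 2.07 on the log2 scale (SE 0.57, adjusted p = 0.00703). These treated libraries held 1, 4 and 15 reads, and without the third the change was -3.45. In A673 vehicle values of 51.3, 55.8 and 44.7 CPM overlapped treated values of 52.0, 48.0 and 50.3 CPM, and in TC32 72.8, 84.7 and 95.5 CPM overlapped 85.2, 97.4 and 94.2 CPM. For A673 and TC32 adjusted p was 0.981 and 0.708 in edgeR's test. After 20 days the A673 cells held 8.68, 11.1 and 25.4 CPM of NKX2-2 against 46.4, 45.8 and 44.0 CPM with vehicle. All 3 treated libraries then lay below the vehicle libraries, at a change of -1.59 ± 0.26 (adjusted p = 3.27e-05), or -2.20 without treated replicate 3. In CHLA10 at 20 days the change was -2.09 ± 0.48, near that at 3 days.

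NR0B1 (DAX1), an orphan nuclear receptor that acts as a corepressor and sits at a GGAA microsatellite on chromosome X, was called in 1 of the 5 comparisons. In CHLA10 at 3 days, vehicle libraries at 120, 118 and 118 CPM lay among treated libraries at 140.5, 155 and 104.5 CPM. In TC32 vehicle values of 705, 622 and 675 CPM overlapped treated values of 699, 551 and 566 CPM. The log2 changes were 0.17 ± 0.31 and -0.14 ± 0.31, and neither was called. In A673 at 3 days 2 vehicle libraries held 321 and 306.5 CPM and the third, which stood apart, 125 CPM, with treated libraries at 219.8, 222 and 213 CPM between them. The change there was -0.20 ± 0.31 (adjusted p = 0.66), and without the 4 distant libraries it was -0.48 (0.000567). In A673 at 20 days NR0B1 fell: 51.6, 43.0 and 119 CPM with inhibitor against 155, 149 and 145 CPM with vehicle, a change of -1.07 ± 0.32 (adjusted p = 0.00974). Without treated replicate 1 or 2 that call was lost (adjusted p = 0.0616 and 0.0677), and without replicate 3 the change was -1.66. In CHLA10 at 20 days it was 0.18 ± 0.31, not called, and without the 4 distant libraries NR0B1 rose there, by 0.42 (adjusted p = 0.00656).

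BCL11B, a zinc finger transcription factor best known from T cells and neurons, was called with all libraries in 1 of the 5 comparisons, A673 at 20 days. In CHLA10 at 3 days treated libraries at 345, 328 and 309.6 CPM all lay above vehicle libraries at 291, 289.6 and 267 CPM, and in TC32 treated libraries at 205, 223 and 227 CPM lay above 169, 183 and 183 CPM. The log2 changes, 0.21 ± 0.30 and 0.29 ± 0.30, were not called (adjusted p = 0.641 and 0.454). They were called without the 4 distant libraries, with adjusted p = 0.0208 and 0.00212, and in TC32 also when only that line was fitted (0.0102). Without those libraries the changes were 0.21 and 0.28, each with a standard error of 0.07. In A673 at 3 days and CHLA10 at 20 days the BCL11B changes lay below 0, at -0.43 ± 0.30 and -0.49 ± 0.30, not called, and without those libraries at -0.27 (adjusted p = 0.00877) and -0.46 (0.000112). With all libraries no difference between these effects of lines or times was called for BCL11B, such as A673 against CHLA10 at 3 days (adjusted p = 0.36). In A673 at 20 days 2 treated libraries held 41.0 and 32.5 CPM and the third 127 CPM, above every vehicle library (122, 125 and 116 CPM). The change of -0.85 ± 0.30 was called (adjusted p = 0.0287), but not when any library of either group other than treated replicate 3 was left out (adjusted p = 0.051 to 0.158). Without replicate 3 it was -1.72.

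Of the signalling genes, PPP1R1A, an inhibitor of protein phosphatase 1 controlled by protein kinase A, fell in every comparison. In CHLA10 at 3 days vehicle libraries held 199, 196 and 199 CPM and treated libraries 75.6, 75.1 and 84.0 CPM. In A673 it was 52.7, 60.1 and 65.1 against 13.8, 15.6 and 16.9 CPM, and in TC32 38.9, 36.2 and 41.4 against 7.86, 7.90 and 7.57 CPM. Groups did not overlap in any line, and the replicates lay close together. The log2 change was -1.34 ± 0.30 (adjusted p = 0.00148) in CHLA10, -1.94 ± 0.31 (5.42e-05) in A673 and -2.32 ± 0.33 (6.96e-06) in TC32. At 20 days treated A673 libraries held 4.29, 4.32 and 10.7 CPM against 59.7, 62.7 and 64.0 CPM, a 9.58-fold difference (log2 change -3.26, or -3.85 without treated replicate 3). In CHLA10 treated libraries held 89.5, 71.2 and 25.9 CPM against 244.5, 224 and 139 CPM, a 3.26-fold difference. PPP1R1A (chr12:54575387-54588659) overlaps PDE1B, which was not called in 4 of the 5 comparisons and in TC32 stood at -0.96 ± 0.30 (adjusted p = 0.0102).

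NPY1R encodes a receptor for neuropeptide Y, and was called in A673 at both times and in CHLA10 at 20 days. In A673 at 3 days vehicle libraries at 276, 296 and 307.5 CPM stood above treated libraries at 182, 173 and 174.5 CPM. At 20 days vehicle libraries held 369, 345 and 349 CPM and treated libraries 32.9, 36.2 and 38.6 CPM. The log2 change was -0.73 ± 0.22 at 3 days (adjusted p = 0.0115) and -3.30 ± 0.24 at 20 days (1.59e-10), a 9.87-fold difference at the later time. All 3 treated A673 libraries shared this low level, the third replicate included. In CHLA10 the changes were -0.29 ± 0.22 at 3 days (not called, but adjusted p = 0.00428 without the 4 distant libraries) and, at 20 days, -0.82 ± 0.22 (adjusted p = 0.00496). The 20-day treated CHLA10 libraries held 353, 297 and 113 CPM against 465, 513 and 369 CPM, and without the third treated library the change was -0.47. That call was lost when only the CHLA10 libraries were fitted (adjusted p = 0.0695). In TC32 the NPY1R change was -0.40 ± 0.22, not called. It was called at -0.42 without the distant libraries (adjusted p = 0.000129) and when only TC32 was fitted (0.00531). NPY1R overlaps NPY5R, a second neuropeptide Y receptor on the other strand, whose log2 change in A673 was -1.27 ± 0.31 at 3 days and -4.08 ± 0.39 at 20 days.

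PRKCB, the beta isoform of protein kinase C, changed by less than 1 on the log2 scale in every comparison. In TC32 at 3 days vehicle libraries held 432, 446 and 432 CPM and treated libraries 236, 299 and 297 CPM. PRKCB fell there by 0.66 on the log2 scale (SE 0.17, adjusted p = 0.00253). In CHLA10 and A673 at 3 days the changes were -0.38 ± 0.17 and -0.25 ± 0.17, not called, although no treated library reached a vehicle library in either line. Without the 4 distant libraries both were called, at -0.38 (adjusted p = 5.13e-05) and -0.28 (0.00327). At 20 days PRKCB fell in both lines, by 0.81 (SE 0.17) in CHLA10 and 0.69 (SE 0.17) in A673.

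STEAP1 and STEAP2 encode cell-surface members of the STEAP metalloreductase family and lie side by side on chromosome 7. STEAP1 ends 2760 bases before STEAP2 begins. STEAP1, a target of antibodies and engineered T cells, held 81.1, 80.5 and 81.1 CPM in vehicle CHLA10 at 3 days and 41.2, 39.4 and 35.3 CPM with inhibitor. In A673 it held 70.6, 68.1 and 85.2 against 38.6, 27.1 and 23.1 CPM. The change was -1.07 ± 0.27 (adjusted p = 0.0047) and -1.34 ± 0.28 (0.00063). In TC32 the treated libraries at 75.8, 76.9 and 81.4 CPM also lay below the vehicle libraries at 135, 109 and 125 CPM, but the change of -0.66 ± 0.27 just missed the threshold, with adjusted p = 0.0502. DESeq2 called it (adjusted p = 0.0246), as did the fit without the 4 distant libraries (4.85e-06). At 20 days STEAP1 fell by 1.48 on the log2 scale in CHLA10 (SE 0.27) and by 1.96 in A673 (SE 0.29), where treated libraries held 15.3, 13.7 and 27.9 CPM against 78.6, 69.5 and 73.4 CPM.

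STEAP2 did not follow STEAP1 in TC32: treated libraries at 104, 131 and 125 CPM overlapped vehicle libraries at 100.3, 109 and 101 CPM, with a change of 0.22 ± 0.43. In A673 at 3 days it was 41.9, 41.5 and 42.9 CPM with inhibitor against 102, 107 and 101 CPM with vehicle, with no overlap. STEAP2 fell there by 1.29 (SE 0.44, adjusted p = 0.0277), a call lost when any library of these groups other than vehicle replicate 3 was left out (adjusted p up to 0.0766). In A673 at 20 days treated libraries at 18.3, 16.6 and 67.7 CPM overlapped the vehicle range of 62.4 to 83.0 CPM. The change of -1.13 ± 0.44 was called (adjusted p = 0.0473), but not without treated replicate 1 or 2 or any vehicle library, and without treated replicate 3 it was -2.10. In CHLA10 STEAP2 was not called at 3 days (-0.69 ± 0.46) or 20 days (-0.82 ± 0.45). With same-numbered CHLA10 libraries of 20 days paired as a block, the change was -1.05 (adjusted p = 0.0324). Without the 4 distant libraries STEAP2 fell at both times, by 0.69 (adjusted p = 1.51e-05) and 0.59 (0.000665), and without treated replicate 3 alone the 20-day change was -0.37 (0.523).

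LOXHD1, a protein of the hair cells of the inner ear with repeated PLAT domains, showed the largest change of the members in CHLA10 and A673. In CHLA10 at 3 days it held 48.1, 51.5 and 41.8 CPM with vehicle and 1.95, 2.58 and 6.11 CPM with inhibitor. In A673 it was 89.5, 85.6 and 57.5 against 7.79, 9.76 and 8.48 CPM, and in TC32 91.8, 90.9 and 86.8 against 15.8, 21.3 and 22.3 CPM. The fall was 13.3-fold in CHLA10 (log2 change -3.74 ± 0.40, adjusted p = 2.8e-07, or -4.38 without treated replicate 3), 8.91-fold in A673 (1.18e-06) and 4.54-fold in TC32 (3.16e-05). At 20 days LOXHD1 was close to the limit of detection. Treated CHLA10 libraries held 30, 18 and 15 reads against 922, 819 and 332 in vehicle, and treated A673 libraries 7, 1 and 32 reads against 1081, 1523 and 1114. The 20-day change was -5.36 ± 0.47 in CHLA10 (adjusted p = 1.18e-08) and -6.05 ± 0.50 in A673 (2.81e-09), where it was -7.71 without treated replicate 3.

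**Figure D3:**
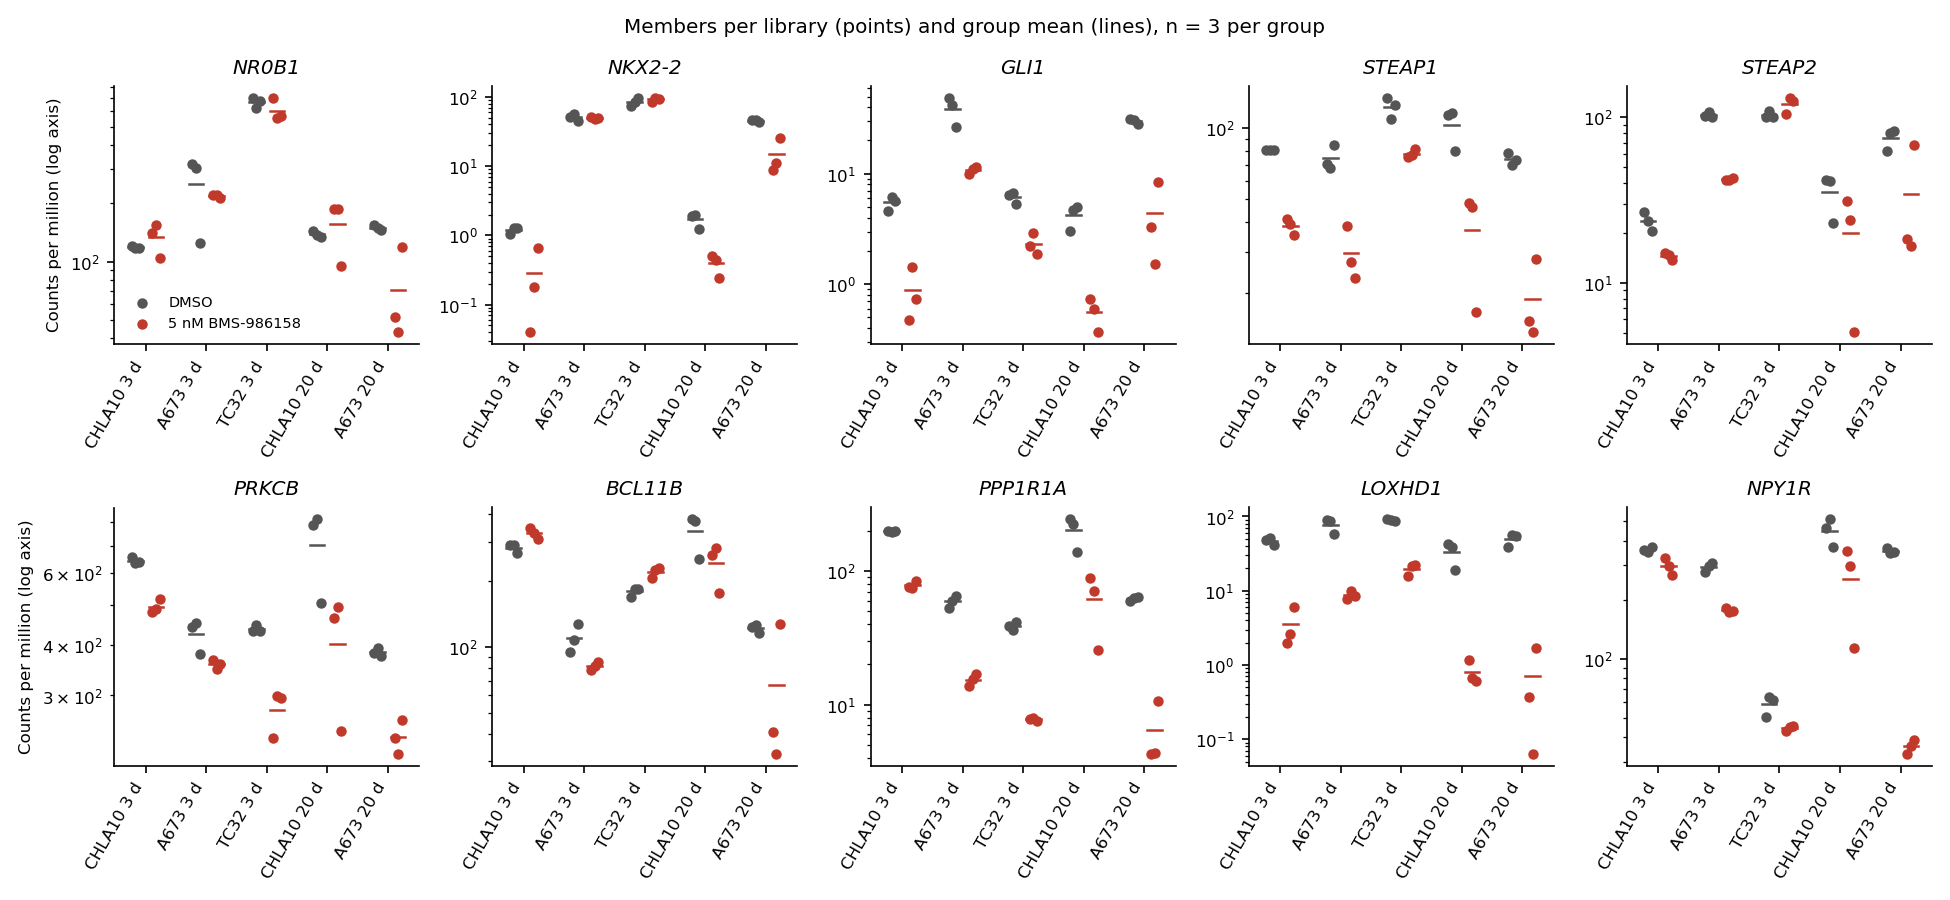
Each member in each library (y axis: CPM, log axis), vehicle in grey and 5 nM BMS-986158 in red, with short lines at the means of 3 libraries. GLI1, STEAP1, PRKCB, PPP1R1A, LOXHD1 and NPY1R separate in all 5 pairs of groups, while NR0B1 overlaps in all pairs but A673 at 20 days. How many of all genes separate in this way was not counted.

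Whether the effect changed between 3 and 20 days was tested as a difference of effects. In A673 3 of 10 members differed, all with a more negative log2 change at 20 days, where 7.26% of all genes differed in either direction. They were LOXHD1 (-2.89 ± 0.63, adjusted p = 0.0066), NPY1R (-2.57 ± 0.31, 3.44e-05) and NKX2-2 (-1.57 ± 0.36, 0.00826). The median difference over the 10 members was -0.90. In CHLA10 0 of 10 were called by edgeR and by DESeq2 (1 of 10 at an unadjusted p under 0.05), where 6.32% of all genes were, and LOXHD1 had the largest difference, -1.62 ± 0.62 (adjusted p = 0.118). Without the 4 distant libraries all 10 members had a lower log2 change at 20 days in A673 (14.0% of all genes), and 3 in CHLA10 (8.31%). Among vehicle cells edgeR and DESeq2 called 0 of 10 members between 20 and 3 days in either line (0 in CHLA10 and 1 in A673 at an unadjusted p under 0.05), where 15.1% of all genes were called in CHLA10 and 6.1% in A673. Without the distant libraries 5 members differed between the vehicle groups of CHLA10 and 6 between those of A673, where 29.1% and 33.7% of all genes did, so these vehicle levels are not shown to be the same.

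**Figure D4:**
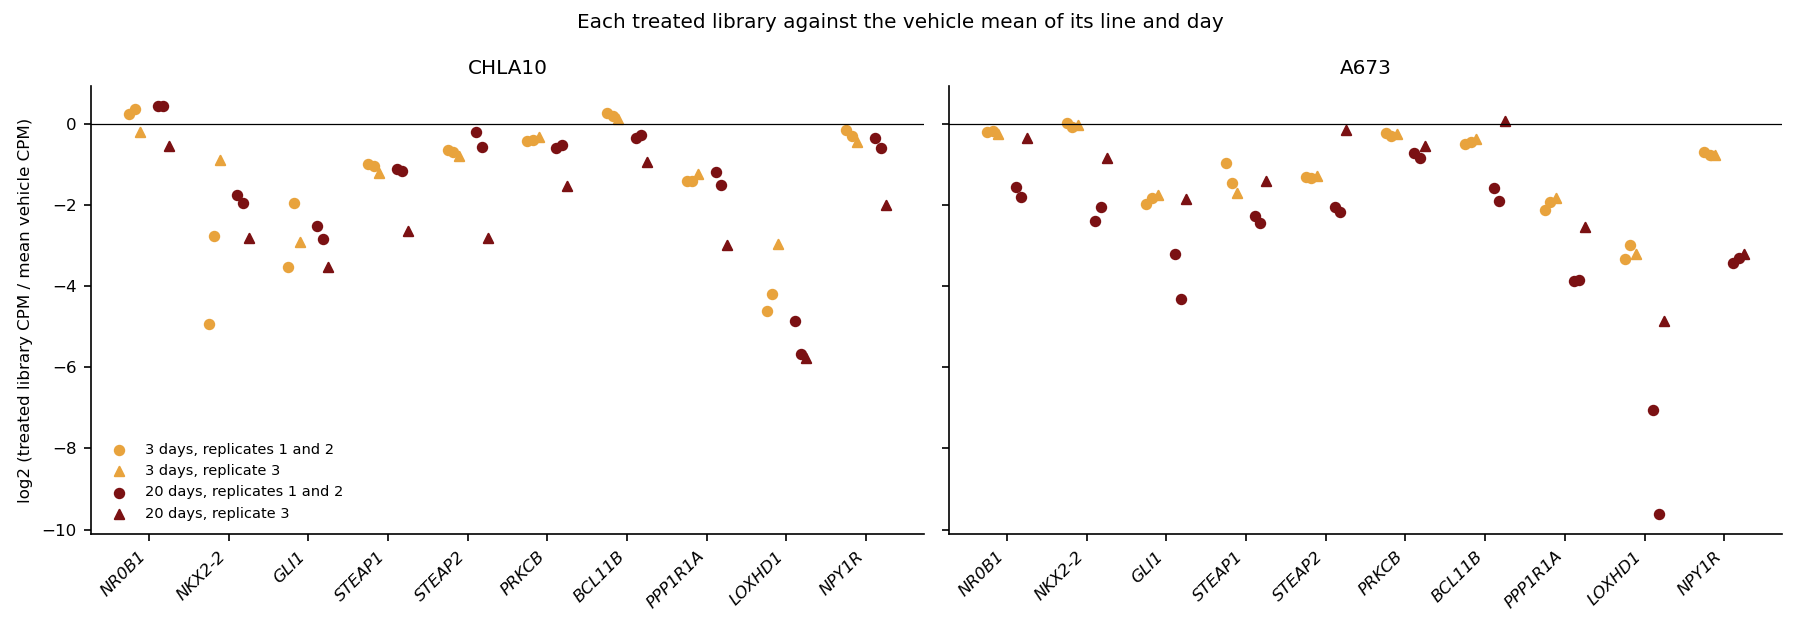
Log2 ratio of each treated library to the vehicle mean of its line and day (y axis), CHLA10 on the left and A673 on the right, 3 days in orange and 20 days in dark red, replicate 3 as a triangle. Replicate 3 at 20 days lies above the other 2 for all 10 members in A673 and below them for all 10 in CHLA10.

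Differences between lines were tested in the same way. At 3 days the NKX2-2 log2 change was higher in A673 (-0.01) than in CHLA10 (-2.07), by 2.06 ± 0.62 (adjusted p = 0.0349). In TC32 (0.13) it was higher than in CHLA10 by 2.20 ± 0.62 (0.0201). These rest on the few CHLA10 reads of NKX2-2. The LOXHD1 effect was weaker in TC32 than in CHLA10, by 1.55 ± 0.51 (adjusted p = 0.0467). Thus 1 and 2 of 10 members differed, against 10.5% and 13.8% of all genes. Between TC32 and A673 edgeR and DESeq2 called 0 of 10 (1 at an unadjusted p under 0.05, and 1 by limma-voom), against 24.2% of all genes. At 20 days 3 of 10 differed, all with a lower log2 change in A673 than in CHLA10, where 21.9% of all genes differed in either direction. They were NPY1R (-2.48 ± 0.31, 4.09e-06), PPP1R1A (-1.56 ± 0.44, 0.0139) and NR0B1 (-1.25 ± 0.45, 0.0474). Without the 4 distant libraries 6 of 10 were called in each of these 4 comparisons, where 27.5%, 27.4% and 34.4% of all genes were called at 3 days and 32.4% at 20 days.

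A wider list of 30 other EWS::FLI1-activated genes moved the same way with more exceptions. Of the 30, 15 fell and 3 rose in CHLA10, 13 and 4 in A673, and 18 and 5 in TC32 at 3 days, and the medians were -0.53, -0.39 and -0.54. Of all genes 15.7%, 18.4% and 22.8% fell in these comparisons and 14.0%, 15.3% and 22.3% rose. At 20 days 16 fell in each line and 2 and 4 rose, with medians of -0.50 and -0.67, where 17.2% and 19.9% of all genes fell and 16.5% and 19.7% rose. IGF1, the growth factor of the insulin family, fell in all 5 comparisons, by 2.65 to 3.96 on the log2 scale, and the protease gene PAPPA, whose product frees IGF from its binding proteins, by 1.64 to 3.52. The blood group antigen gene XG fell in A673 by 3.96 at 3 days and 5.42 at 20 days, and was not called in the other comparisons, at -0.19 to -0.46.

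Genes that EWS::FLI1 is known to repress showed no direction common to the lines at 3 days. Of 14, 2 rose and 3 fell in CHLA10, 2 rose and 1 fell in A673, and 1 rose and 6 fell in TC32, with medians of 0.08, 0.52 and -1.02. These shares of risen genes are near or below the 14.0%, 15.3% and 22.3% of all genes. Of all genes 15.7%, 18.4% and 22.8% fell, so in TC32 the repressed genes fell more often than genes at large. Without the 4 distant libraries 10 of the 14 fell and 2 rose in TC32, where 28.1% and 25.7% of all genes did. In A673 at 3 days 4 then fell and 3 rose (21.8% and 23.5% of all genes), with a median of 0.05. In CHLA10 at 3 days 5 then fell and 4 rose (21.5% and 19.0%), with a median of 0.07. In A673 at 20 days 10 of 14 rose, where 19.7% of all genes did, and 0 fell, with a median of 1.62. The matricellular protein gene THBS1 stood at 104 ± 83.5 CPM (SD, n = 3) against 2.05 ± 2.23, PHLDA1 at 58.5 ± 36.3 against 2.73 ± 0.985, and CCN2, a target of YAP signalling, at 585 ± 419 against 37.6 ± 37.1. The treated libraries varied widely for all 3. In CHLA10 at 20 days 3 of the 14 rose and 3 fell, where 16.5% and 17.2% of all genes did. NNMT went the other way from its list and fell in both times in CHLA10 and at 3 days in A673 and TC32, at group means no higher than 2.49 CPM.

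**Figure D5:**
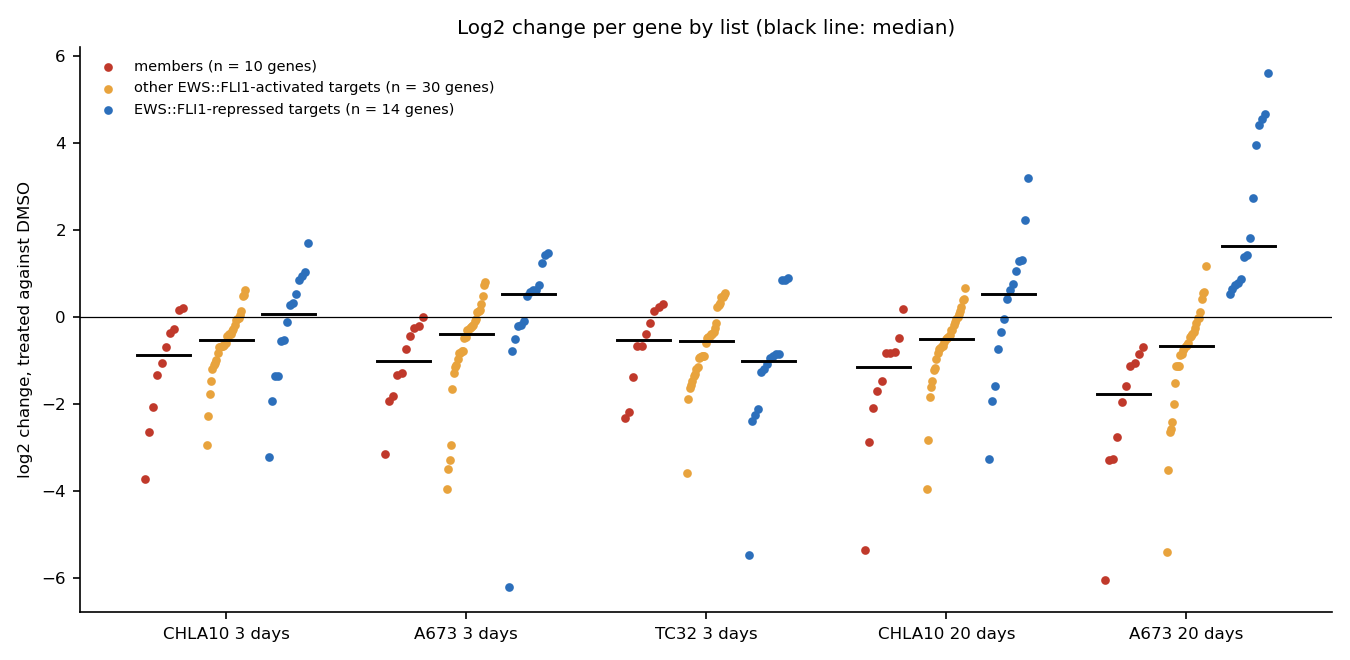
Log2 change of each gene (y axis) in the 10 members, 30 other EWS::FLI1-activated and 14 EWS::FLI1-repressed genes, by comparison, with black lines at the medians. The repressed genes all lie above 0 in A673 at 20 days, at a median of 1.62, and spread across 0 elsewhere.

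The relatives of the members did not all move with them. Their counts are to be read against the 14.0% to 22.3% of all genes that rose and the 15.7% to 22.8% that fell in a comparison. Of 11 other Hedgehog pathway genes tested, 2 to 3 rose and 1 to 4 fell in each comparison, with medians of -0.28 to 0.03. PTCH1, the Hedgehog receptor and a standard GLI target, fell in CHLA10 at both times (-0.55 ± 0.13 and -1.06 ± 0.13), rose in TC32 (0.64 ± 0.13) and was not called in A673. GLI2, the activator that acts before GLI1, fell in CHLA10 at 3 days (-0.81 ± 0.24) and in A673 at 20 days (-0.74 ± 0.24). The ligand gene SHH was scarce: its highest group mean, 2.83 CPM, was in vehicle A673 at 20 days, against 0.0179 CPM with inhibitor.

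Of the STEAP family, STEAP3 and STEAP1B were tested and both fell in all 5 comparisons. STEAP3, an endosomal ferrireductase, changed by -1.30 to -3.10, and STEAP1B, a near copy of STEAP1 whose reads may be shared with it, by -1.14 to -4.09. Of 8 other protein kinase C genes tested, 1 to 3 rose and 0 to 2 fell in a comparison. PRKCE rose in all 5, by 0.59 to 1.75, opposite to PRKCB. By the mean log2 change over the 5 comparisons, PRKCH (-1.01), PRKCD (-0.77) and PRKCZ (-0.76) lay below 0, as PRKCB did. These means were not tested. Of 3 neuropeptide Y system genes tested, NPY, NPY5R and DPP4, all 3 fell in A673 at 20 days and 0 in CHLA10 at either time, and only NPY5R was above 4 CPM in a group mean. Of 4 other protein phosphatase 1 genes tested, 2 fell in A673 at 20 days. PPP1R1B (DARPP-32), the closest relative of PPP1R1A in this list, fell in A673 at 20 days (-2.03 ± 0.37). Of 5 relatives of NKX2-2 and BCL11B tested, 1 to 3 fell and 0 rose, with BCL11A at -1.82 ± 0.42 in A673 at 20 days.

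Over the 10 group means, centred within each line, LOXHD1 followed the mean of the 10 members most closely (Pearson r = 0.990), then GLI1 (0.973) and STEAP1 (0.971), and NR0B1 least (0.625). That mean includes the member compared with it. A member with large changes, such as LOXHD1, therefore lies close to it in part by construction. The 5 genes outside the members with the most alike pattern were GSTM4 and MOK (r = 0.986 each), TMEM98 (0.985), ADGRA1-AS1 and CERS4 (0.984 each). The 10 means share the same libraries and treatment, and no test was made. These 5 genes were picked for this pattern, so their falls in the same libraries follow from the choice. GSTM4, a glutathione transferase gene that is also in the list of other activated genes, fell in all 5 comparisons, by 0.61 in TC32 to 1.51 in A673 at 20 days, and CERS4, a ceramide synthase gene, by 0.97 to 2.89. MOK, a kinase gene, fell in all comparisons but TC32 (-0.23, adjusted p = 0.276).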

How the data were processed

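Poly(A) RNA was sequenced as read pairs in 30 libraries, 10 groups of 3, grouped by line, time and treatment as labelled. The submitters' processing notes list STAR, Trim Galore, FastQC, DESeq2 and the build GRCh38. The counting tool, its strand setting, annotation and versions were not given in the sources used here. Raw read counts per Ensembl gene, not normalized, are what the authors deposited. Coordinates and exon lengths are from GENCODE 29 (GRCh38), which held 33456 of the 33538 gene IDs.

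The test was that of edgeR 4.0.16 (R 4.3.3): filterByExpr by group, TMM factors, 1 robust quasi-likelihood model for all 30 libraries and Benjamini-Hochberg adjustment over the 16713 genes kept. The contrasts were 5 of inhibitor against vehicle, 6 differences between effects, 3 between lines and 2 between times in vehicle. A standard error is the size of the log2 change over the root of its F statistic, and CPM used TMM-scaled library sizes. Alternatives were DESeq2 1.42.0, limma-voom (limma 3.58.1), other size factors, filters and thresholds, single lines, a replicate block, each replicate left out, and the 4 most distant libraries left out, which was chosen after seeing the data. The script was tested on simulated data.

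Every member is named, and of other lists up to 4 genes with the largest mean change, plus EWSR1, FLI1, HEXIM1, SERPINI1, NPY5R, PTCH1 and GLI2. The overlapping genes ARHGAP9 and PDE1B were added after seeing the data. The members and lists were chosen with earlier results of these data known. Replicate numbers are from the titles. Deviations from the group means correlated above 0.1 in every same-numbered pair only in CHLA10 at 20 days (0.199, 0.15 and 0.361). The main tests used no pairing, there or elsewhere. The replicate block, fitted over every line and time, was an alternative only. No pair of libraries agreed within counting noise (lowest chi-square per gene 2.19). All libraries are labelled batch 1.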

Additional observations from a re-analysis of the deposited data

Results flagged for a closer look

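The size of the treatment effect differed between times or lines for 5 members, by the test of the difference itself (edgeR's quasi-likelihood test, adjusted over all genes).

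Between times in A673, 7.26% of all genes differed in either direction. Of the 10 members, 3 had a more negative log2 change at 20 than at 3 days. They were LOXHD1 (-6.05 against -3.15, difference -2.89, adjusted p = 0.0066), NPY1R (-3.3 against -0.73, difference -2.57, 3.44e-05) and NKX2-2 (-1.59 against -0.01, difference -1.57, 0.00826). In each case all 3 treated 20-day libraries lay below all 3 vehicle libraries. These 3 kept their call when any library was left out, and without the third treated 20-day library the difference was -4.56 for LOXHD1.

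At 3 days NKX2-2 was called lower in CHLA10 only, and its log2 change was higher in A673 (2.06, adjusted p = 0.0349) and TC32 (2.20, 0.0201) than in CHLA10. The LOXHD1 fall was weaker in TC32 than in CHLA10 (1.55, 0.0467). Each of these lost its call under an alternative: leaving out treated CHLA10 replicate 1, for example, gave adjusted p = 0.134, 0.0819 and 0.139. With all libraries, members called numbered 1 of 10 (A673 against CHLA10) and 2 of 10 (TC32 against CHLA10). These counts are near the 10.5% and 13.8% of all genes that differed.

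At 20 days the log2 change was lower in A673 than in CHLA10 for NPY1R (-2.48, adjusted p = 4.09e-06), PPP1R1A (-1.56, 0.0139) and NR0B1 (-1.25, 0.0474). These 3 of 10 members stand against 21.9% of all genes that differed in either direction. NPY1R kept its call in every fit. PPP1R1A lost it without replicate 1 of the treated CHLA10 group (0.0512) or of the treated A673 group (0.0518), and NR0B1 lost it in 10 of the 12 fits that leave out a library, with the largest adjusted p = 0.127.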

How the results depend on the processing

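Of 32 called treatment results of single members, 27 kept their call and direction in every alternative other than stricter thresholds. The lost calls stand in the report. Library size alone as scaling moved the median over all genes by -0.115 in A673 at 20 days. Without the 4 most distant libraries, members that fell in CHLA10 at 3 days numbered 8 and 1 rose there, 1 rose in TC32 and 1 in CHLA10 at 20 days. In the same fit members called numbered 3 for CHLA10 and 10 for A673 between times, 6 in each comparison of effects between lines, and 5 (CHLA10) and 6 (A673) between vehicle times. That fit also called more of all genes: 18.5% and 25.4% between times, 27.4% to 34.4% between lines, and 29.1% and 33.7% between vehicle times. Fitting only the lines compared gave 1 member that rose in TC32 (BCL11B) and 1 called for TC32 against A673 effects, as did limma-voom for the latter. With replicate numbers as a block, members called numbered 1 for CHLA10 and 5 for A673 between times and 2 for TC32 against A673. Same-numbered libraries correlated above 0.1 throughout in CHLA10 at 20 days only, where the block changed no member's call but STEAP2. For the vehicle contrasts no paired fit was run.

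For effects of A673 against CHLA10 at 3 days, library size scaling, no filter and adjusted p under 0.01 each gave 0 members. For TC32 against CHLA10 these gave 1, 1 and 0, and DESeq2 gave 1. At adjusted p under 0.01, effects of A673 against CHLA10 at 20 days gave 1 member and vehicle TC32 against A673 gave 3, as did a log2 change of at least 1. Leaving out 1 library at a time gave 5 to 5, 5 to 6 and 4 to 4 members that fell at 3 days in CHLA10, A673 and TC32, 7 to 7 and 7 to 10 at 20 days in CHLA10 and A673, and 0 that rose. Between times it gave 0 to 1 (CHLA10) and 3 to 7 (A673, 7 without treated 20-day replicate 3). Between lines it gave 0 to 1 (A673 against CHLA10), 0 to 2 (TC32 against CHLA10) and 0 to 0 (TC32 against A673) at 3 days, and 1 to 4 at 20 days. Vehicle contrasts gave 7 to 8, 6 to 7 and 4 to 6 between lines, and 0 to 0 (CHLA10) and 0 to 1 (A673) between times, with 1 without A673 3-day vehicle replicate 3.

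Reversals were limited to values not called by the main tests. The STEAP2 difference between times in A673, 0.16, was -0.13 with the block, -0.12 with limma-voom and -0.84 without the 4 libraries, where it was called (adjusted p = 0.000411), and ran from -0.82 to 0.48 with 1 library left out. With 1 library left out, A673 3-day changes ran from -0.52 to 0.02 for NR0B1 and from -0.09 to 0.06 for NKX2-2, and the STEAP2 difference between lines at 20 days from -1.28 to 0.15. The cause was not tested. Low counts limit NKX2-2 in CHLA10 and LOXHD1 at 20 days.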
